A study of Mus musculus with 6 samples.

Results

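The genes described here serve the MHC class I pathway, in which fragments of a cell's own proteins are carried to the cell surface. They are H2-K1 and H2-D1, B2m, Tap1, Tap2, Tapbp, Psmb8, Psmb9, Psmb10 and Nlrc5. The 10 genes were chosen by name, and all 10 were found among the 56941 genes of the count table. Each of them passed edgeR's filter on low counts, as did 32149 genes in all. The libraries held total RNA of HFSCs, the hair follicle stem cells, which had been sorted by FACS as CD34+/α6-integrin+ cells from dorsal skin of female mice at PD68 (postnatal day 68). The labels give 3 biological replicates as WT and 3 as Dab2-cKO. Both groups were Dab2 fl/fl, of the strain B6;129S4-Dab2tm1Cpr/J, and both had been given tamoxifen at 75 mg per kg of body weight. WT mice lacked K14CreER (K14CreER-/-), while Dab2-cKO mice carried it (K14CreER+/-). K14CreER is a Cre recombinase that tamoxifen activates and that the keratin 14 promoter drives, so the floxed Dab2 alleles are open to deletion only where that promoter has been active. Tamoxifen is shared by the groups, and Cre itself is not, so the Cre and the loss of Dab2 cannot be told apart.

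The class I molecule is a heavy chain, here H2-K1 or H2-D1, that pairs with the light chain beta-2 microglobulin (B2m) and holds a short peptide. Peptides are cut by the proteasome, in which the immunoproteasome subunits Psmb8, Psmb9 and Psmb10 can take the places of the constitutive subunits Psmb5, Psmb6 and Psmb7. The transporter made of Tap1 and Tap2 moves the peptides into the endoplasmic reticulum, where tapasin (Tapbp) holds empty class I molecules close to it. Nlrc5 is a transactivator of these genes that reaches their promoters through the RFX, CREB and NF-Y proteins, and interferons raise the whole set. Quiescent HFSCs are known for low class I at their surface.

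The total count per library lay between 7040032 and 11696457, and the TMM factors ran from 1.11 to 1.21 for WT and from 0.847 to 0.876 for Dab2-cKO. The targeted gene, Dab2, was higher rather than lower in the libraries labelled Dab2-cKO, 4.21-fold (adjusted p = 3.04e-34 by edgeR). Its normalized count was 1375 ± 68.2 (SD, n = 3) there, against 327 ± 15.4 (SD, n = 3) in those labelled WT. The cause of this rise was not tested. A count per gene sums all exons and cannot show whether a floxed exon was lost, and the columns of the table name the Dab2-cKO group only by its floxed alleles. All directions are therefore given as the libraries are labelled. The libraries also held RNA of cells other than keratinocytes, and the share of it moved with the groups. Fibroblast markers (Col1a1, Col1a2, Col3a1, Pdgfra, Lum and Dpt) were called higher in the libraries labelled Dab2-cKO for 6 of 6 genes, endothelial markers for 7 of 7, leukocyte markers for 12 of 17 and bulge markers for 6 of 9, while 3 of 9 bulge markers (Lgr5, Sox9 and Lhx2) and 5 of 5 melanocyte markers were lower. Col1a1, a collagen of fibroblasts, had 7018 ± 724 normalized counts per kb of exon in the WT libraries and Krt14, the keratin of basal keratinocytes, 3403 ± 224 (SD, n = 3 each).

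All 10 class I presentation genes were higher in the libraries labelled Dab2-cKO, by 2.45-fold (Tap2) to 6.34-fold (Psmb8). B2m rose 4.60-fold, H2-K1 3.51-fold and H2-D1 3.07-fold. For each of the 10 genes, all 3 libraries labelled Dab2-cKO lay above all 3 labelled WT, and the adjusted p of edgeR's quasi-likelihood test was at most 2.27e-09 (Psmb9). Among all 32149 genes tested, 16.8% were called higher, 11.5% were called lower and 20.6% had every Dab2-cKO library above every WT library. The median log2 fold change was 1.61 over the 10 genes and -0.02 over all genes tested, and 4.01% of all genes tested rose by at least the 1.29 (log2) of Tap2. Together the 10 genes took 0.0599% ± 0.00246 of a WT library's counts and 0.153% ± 0.00514 of a Dab2-cKO library's (SD, n = 3 each). In bulk RNA of sorted cells, more cells of a type and more RNA per cell cannot be told apart. The p-values set the difference between the groups against the spread of libraries within a group. They cannot tell genotype from anything else that differed between the groups.

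**Figure D1:**
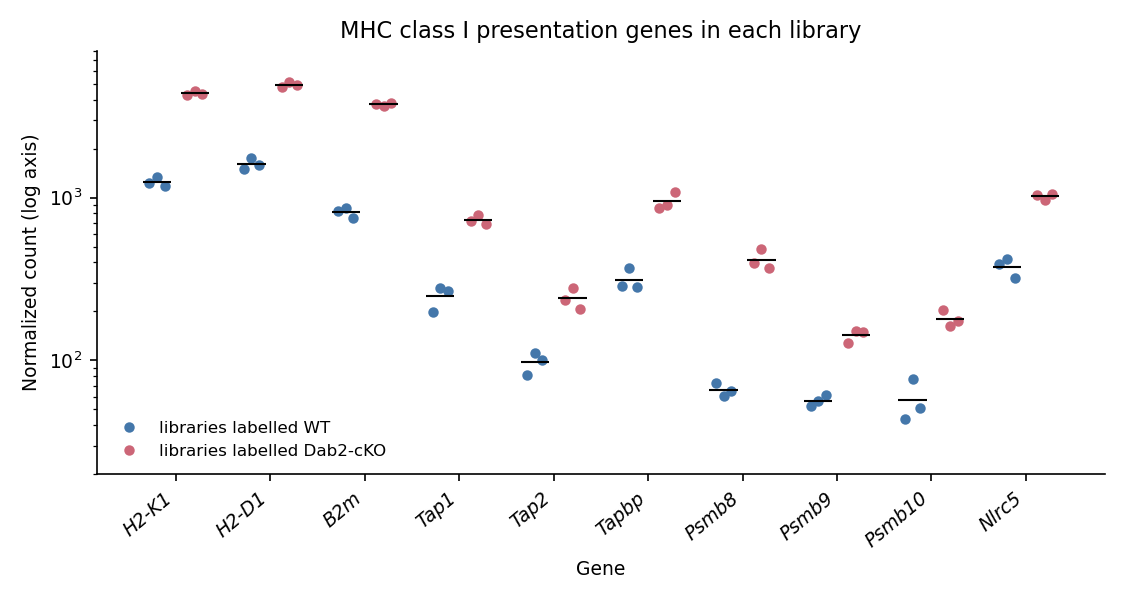
Normalized count (log axis) of each of the 10 class I presentation genes in the 3 libraries labelled WT and the 3 labelled Dab2-cKO. Each point is a library and each black bar the mean of a group. The groups do not overlap for any of the 10 genes, and the gap is widest for Psmb8, with 60.5 to 72.4 in WT and 368 to 486 in Dab2-cKO.

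The heavy chain genes lie at either end of the mouse MHC on chromosome 17, H2-K1 at chr17:34214987-34219321 on the minus strand and H2-D1 at chr17:35481691-35486475 on the plus strand (GRCm39). H2-K1 (ENSMUSG00000061232) had normalized counts of 1230.3, 1342 and 1187 in WT replicates 1 to 3 and of 4302, 4516 and 4362 in Dab2-cKO replicates 1 to 3. H2-D1 (ENSMUSG00000073411) had 1499.8, 1753 and 1583 in WT and 4771, 5118 and 4947 in Dab2-cKO. Replicates lay close together in both genes, and the lowest Dab2-cKO library exceeded the highest WT library by a wide margin. The log2 fold change was 1.81 (standard error, SE, 0.07, adjusted p = 1.87e-33 by edgeR) for H2-K1 and 1.62 (SE 0.07, adjusted p = 1.06e-30 by edgeR) for H2-D1. These genes resemble each other and other heavy chain genes: of all 50-base windows of the main transcript, 8.79% for H2-K1 and 14.2% for H2-D1 also occur in another heavy chain gene, so reads from them could be counted on either or on none. Long noncoding RNAs on the opposite strand overlap 26.8% of the exon bases of H2-K1 and 24.2% of those of H2-D1, and the strand setting of the counting is not given in the sources used here.

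B2m (ENSMUSG00000060802, chr2:121977957-121983594, plus strand) encodes the light chain that every classical class I molecule needs. Its normalized count was 833, 864 and 749 in WT replicates 1 to 3, and 3783, 3638 and 3822 in Dab2-cKO replicates 1 to 3. The replicates of each group lay close together, and the groups were far apart. Its log2 fold change of 2.20 (SE 0.07, adjusted p = 9.35e-38 by edgeR) was above that of both heavy chains. Within each library, the counts of H2-K1 and H2-D1 together were 3.28, 3.58 and 3.70 times those of B2m in WT and 2.40, 2.65 and 2.44 times in Dab2-cKO. This ratio needs no scaling between libraries, and it was lower in every Dab2-cKO library, by 0.50 on the log2 scale (2-sided exact permutation p = 0.1, the lowest value possible with 3 against 3, and 0.1 after adjustment over the 6 ratios tested). The balance between the heavy chains moved less, from 0.778 ± 0.0372 counts of H2-K1 per count of H2-D1 in WT to 0.889 ± 0.0113 in Dab2-cKO (n = 3 each, ± SD, exact permutation p = 0.1, adjusted 0.1).

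The promoters of these 3 chain genes share short stretches of sequence, shown here because the genes rose together and because Nlrc5 and interferon act through such stretches. Each window runs from 250 bases before to 50 bases after the start that RefSeq gives, and was placed in GRCm39 by an exact match. Capitals mark matches, on either strand, to GGGNNTTCCC (the kappa B site), TGAAACT (part of an interferon response element, AGTTTCA on the other strand), GAAANNGAAA (the core of an interferon response element), TGACG (the core of the X2 box) and CCAAT (the Y box, ATTGG on the other strand). In B2m the matches to TGAAACT and GAAANNGAAA overlap. These letters were chosen with the promoters in view.
H2-K1, chr17:34219258-34219557, minus strand: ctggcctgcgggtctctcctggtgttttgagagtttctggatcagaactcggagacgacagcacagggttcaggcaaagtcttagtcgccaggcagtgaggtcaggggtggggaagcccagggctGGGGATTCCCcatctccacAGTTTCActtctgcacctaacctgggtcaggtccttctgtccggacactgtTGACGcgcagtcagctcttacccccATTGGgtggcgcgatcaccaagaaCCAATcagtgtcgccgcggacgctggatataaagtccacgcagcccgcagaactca
H2-D1, chr17:35481820-35482119, plus strand: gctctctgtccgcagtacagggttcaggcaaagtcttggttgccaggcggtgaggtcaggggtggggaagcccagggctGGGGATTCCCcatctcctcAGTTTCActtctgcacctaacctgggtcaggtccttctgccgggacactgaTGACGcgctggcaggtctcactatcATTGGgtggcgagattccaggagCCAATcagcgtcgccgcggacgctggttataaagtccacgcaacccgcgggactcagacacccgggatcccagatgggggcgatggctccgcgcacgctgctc
B2m, chr2:121977918-121978217, plus strand: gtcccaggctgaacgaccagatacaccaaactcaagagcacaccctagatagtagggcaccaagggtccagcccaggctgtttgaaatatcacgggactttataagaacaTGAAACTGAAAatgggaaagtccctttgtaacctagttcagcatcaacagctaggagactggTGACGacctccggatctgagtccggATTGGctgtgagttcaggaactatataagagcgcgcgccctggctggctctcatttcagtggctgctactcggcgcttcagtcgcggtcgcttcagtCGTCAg

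The windows of H2-K1 and H2-D1 were identical at 217 of 242 aligned positions (89.7%), and the same motifs stand in the same order in both. RefSeq gives H2-K1 a second start close by, with an overlapping window. TGAAACT was found in H2-K1, H2-D1 and B2m and in 3.92% of the 32851 promoters in the table. GGGNNTTCCC was found in H2-K1 and H2-D1 and in 1.75% of all promoters, and GAAANNGAAA in B2m and in 3.44%. In all 3 promoters TGACG is followed, after 20 other bases, by ATTGG on the same strand, an arrangement held by 0.0944% of all promoters. The spacing was read from these 3 promoters before its share was counted, so its rarity is no test of them. In all, 27 genes hold the arrangement. One of them is H2-M3, another class I heavy chain gene, which rose 2.03-fold, and the others outside the members are not reported here. TGACG alone stands in 20.8% and CCAAT in 37.4% of all promoters. Not all members that rose held such letters. None of these motifs was found in the windows of Psmb8, which rose 6.34-fold, or Psmb10, which rose 3.14-fold. Tapbp, which rose 3.02-fold, held only CCAAT. A match describes the letters and does not show that a factor binds there.

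Tap1 (ENSMUSG00000037321, chr17:34405996-34416199, plus strand) and Tap2 (ENSMUSG00000024339, chr17:34422501-34435829, plus strand) together encode the peptide transporter. Tap1 had normalized counts of 198, 279.9 and 268 in WT and of 720.0, 782 and 694 in Dab2-cKO, and its log2 fold change was 1.55 (SE 0.10, adjusted p = 9.07e-23 by edgeR). Tap2 had 81.3, 111 and 101 in WT and 236, 279.6 and 207 in Dab2-cKO, with a log2 fold change of 1.29 (SE 0.14, adjusted p = 5.08e-12 by edgeR), the smallest of the 10. Neither gene's groups overlapped, although WT replicate 1, the library with the lowest total count, was the lowest of all for both. The libraries labelled WT held 2.54 ± 0.113 counts of Tap1 per count of Tap2 and those labelled Dab2-cKO 3.06 ± 0.274 (SD, n = 3 each), a difference of 0.27 on the log2 scale (exact permutation p = 0.1, adjusted 0.1). Tapbp (ENSMUSG00000024308, chr17:34134873-34148267, plus strand), the tapasin that bridges the transporter and the class I molecule, had 288, 370.1 and 283 in WT and 871, 901 and 1080.5 in Dab2-cKO. Its log2 fold change was 1.60 (SE 0.09, adjusted p = 6.68e-25 by edgeR), and its Dab2-cKO replicate 3 stood somewhat above the other two. Exons of Zbtb22 on the same strand cover 20.9% of the exon bases of Tapbp, so some of its counts could belong to that gene, and genes on the opposite strand overlap 33.0% of them. Opposite-strand overlap also covers 14.6% of the exon bases of Tap2, 12.4% of Tap1, 14.6% of Psmb8 and 19.6% of Psmb9, where Tap1 and Psmb9 overlap each other.

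Among the immunoproteasome subunits, Psmb8 rose most of the 10 genes and Psmb9 least but one. Psmb8 (ENSMUSG00000024338, chr17:34416690-34420428, plus strand) had normalized counts of 72.4, 60.5 and 64.9 in WT and of 398, 486 and 368 in Dab2-cKO, a log2 fold change of 2.66 (SE 0.13, adjusted p = 7.44e-28 by edgeR). Psmb9 (ENSMUSG00000096727, chr17:34400960-34406738, minus strand) had 52.3, 56.0 and 61.5 in WT and 129, 151 and 149 in Dab2-cKO, a log2 fold change of 1.32 (SE 0.18, adjusted p = 2.27e-09 by edgeR). Psmb10 (ENSMUSG00000031897, chr8:106662362-106665077, minus strand), which lies outside the MHC, had 43.4, 76.7 and 51.3 in WT and 205, 162 and 174 in Dab2-cKO, a log2 fold change of 1.65 (SE 0.17, adjusted p = 9.26e-13 by edgeR). In WT these were the members with the fewest counts, and WT replicate 2 stood apart from the other two in Psmb10 without reaching the Dab2-cKO libraries. Psmb9 and Tap1 are transcribed away from each other, and their promoter windows share 275 of 300 bases on opposite strands. This shared stretch is shown as the start region of a pair of members that rose by 2.50-fold (Psmb9) and 2.92-fold (Tap1), a difference that was not tested. Capitals mark CCAAT and TGACG, and none of the other 3 motifs was found.
Tap1, chr17:34406280-34406579, plus strand: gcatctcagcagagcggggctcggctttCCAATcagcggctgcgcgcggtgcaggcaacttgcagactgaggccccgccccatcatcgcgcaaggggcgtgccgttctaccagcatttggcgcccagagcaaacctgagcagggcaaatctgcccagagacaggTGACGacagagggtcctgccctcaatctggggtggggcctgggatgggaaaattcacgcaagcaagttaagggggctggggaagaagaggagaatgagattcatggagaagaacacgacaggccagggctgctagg

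The constitutive subunits that Psmb8, Psmb9 and Psmb10 replace were not called. Psmb5 had normalized counts of 203, 199.5 and 179 in WT and of 197, 207 and 157 in Dab2-cKO (log2 fold change -0.05, SE 0.13, adjusted p = 0.857 by edgeR). The log2 fold change was 0.16 (SE 0.09, adjusted p = 0.173 by edgeR) for Psmb6 and -0.08 (SE 0.11, adjusted p = 0.68 by edgeR) for Psmb7. Scaling by library size alone lowered Psmb5, Psmb6 and Psmb7 to -0.47, -0.26 and -0.51, all then called lower, beside a median of -0.45 over all genes tested. The ratio of each immunoproteasome subunit to its constitutive counterpart within a library does not depend on the scaling. Psmb8 had 0.357, 0.303 and 0.364 counts per count of Psmb5 in WT and 2.01, 2.34 and 2.35 in Dab2-cKO. Per kb of exon, the normalized count was 19.3 ± 1.76 for Psmb8 and 108 ± 7.30 for Psmb5 in WT, and 122 ± 18.0 and 104 ± 14.9 in Dab2-cKO (SD, n = 3 each). Psmb9 had 0.116 ± 0.0139 counts per count of Psmb6 in WT and 0.261 ± 0.0244 in Dab2-cKO, and Psmb10 had 0.194 ± 0.0418 per count of Psmb7 in WT and 0.656 ± 0.0924 in Dab2-cKO (n = 3 each, ± SD). The ratios thus rose by 2.71, 1.17 and 1.77 on the log2 scale, with no overlap between the groups (exact permutation p = 0.1 and adjusted 0.1 for each, the smallest possible).

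**Figure D2:**
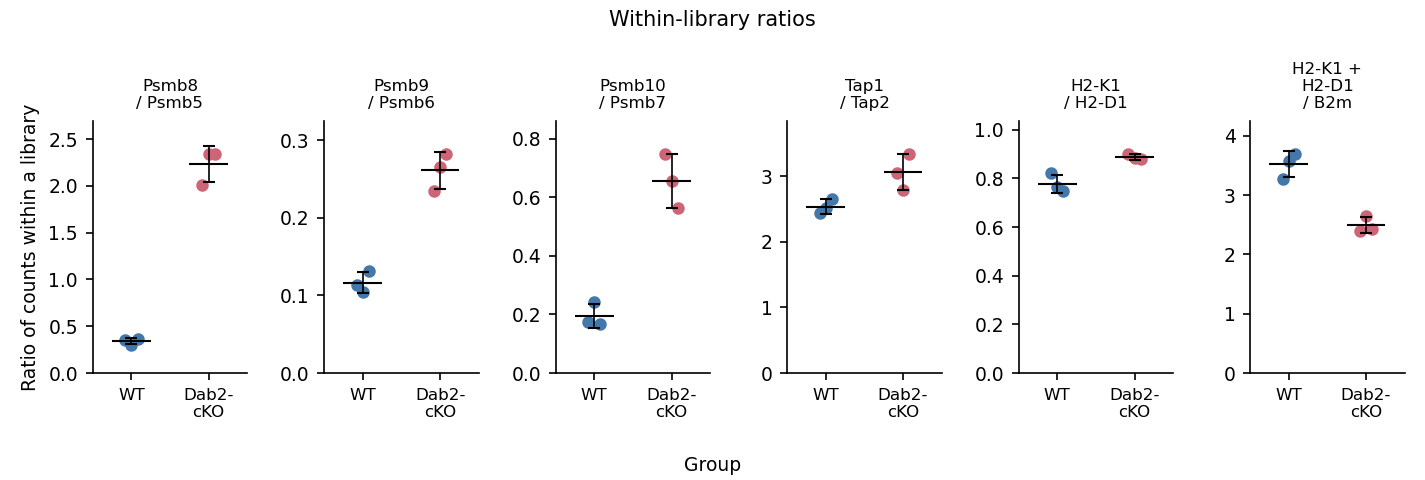
Ratio of the counts of paired genes within each library, for the 6 ratios tested. Points are libraries, horizontal bars the group means and whiskers the SD (n = 3). The groups are apart in all 6 panels: the ratio of Psmb8 to Psmb5 went from a mean of 0.341 to 2.23, while that of H2-K1 plus H2-D1 to B2m went from 3.52 to 2.49.

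Nlrc5 (ENSMUSG00000074151, chr8:95160984-95253900, plus strand), the transactivator of the pathway, had normalized counts of 393, 418 and 322 in WT and of 1039, 975 and 1052 in Dab2-cKO. The groups were well apart, and the log2 fold change was 1.44 (SE 0.08, adjusted p = 2.45e-24 by edgeR). The factors through which Nlrc5 reaches its promoters did not pass the test: Rfx5 had a log2 fold change of -0.05, Rfxank of -0.02 and Rfxap of 0.25, and the NF-Y genes Nfya, Nfyb and Nfyc had -0.16, 0.19 and -0.16. Creb1, a factor of the CREB family, was lower by 0.20 on the log2 scale with an adjusted p of 0.0391 by edgeR, a call that DESeq2 did not make. Library size alone gave Rfx5 a log2 fold change of -0.47, called lower.

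Levels were compared between members per kb of exon, on the scale of normalized counts. As a rough background, the 95th percentile of 1526 chemosensory receptor genes was 12.4 in WT and 11.8 in Dab2-cKO. Whether these cells use some of those genes was not tested. The order in WT was led by H2-D1 with 539 ± 43.2, H2-K1 with 393 ± 25.1 and B2m with 387 ± 28.1 (SD, n = 3 each), and the ranges of H2-K1 and B2m overlapped. Tapbp followed with 71.2 ± 11.1, then Nlrc5, Tap1, Psmb10, Tap2 and Psmb8 between 44.5 and 19.3, and Psmb9 with 14.9 ± 1.22 was the lowest and close to the level of the receptor genes. Nlrc5 and Tap1, Tap1 and Psmb10, and Tap2 and Psmb8 overlapped as neighbours. In Dab2-cKO the order was led by B2m with 1779.6 ± 46.0, which stood above H2-D1 with 1653 ± 58.0 and H2-K1 with 1379 ± 34.7 in every library. Psmb8 moved from the 9th to the 5th place, with 122 ± 18.0, where it overlapped Tap1, and Tap1 overlapped Nlrc5 and Nlrc5 overlapped Psmb10. Psmb9 was again last, with 37.6 ± 3.22. The exon length joins all annotated transcripts of a gene and was 3800 bases for Psmb9 and 4766 for Tap2. Their main transcripts have 1353 and 3976 bases. The order therefore depends on the length used, the last place of Psmb9 and the order of H2-D1 and H2-K1 included.

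Other genes of the pathway were counted by list, to be read beside the 16.8% of all genes tested that were called higher and the 11.5% called lower. Of 14 tested genes for heavy chains outside the members, 11 were higher, none was lower and 3 were not called, with a median log2 fold change of 1.65, and one more was too low to be tested. These are not all fully separate measurements, since 7 of the 11 share over 20% of their 50-base windows with other genes. H2-T23 shares 30.4% and H2-Bl all of them. Genes were told apart by symbol, so H2-Bl, matched most often by H2-T13, may have matched itself under another symbol. H2-T24 shares 3.19%, and H2-M2, H2-M3 and H2-M5, also higher, share 0.574% to 1.06%. A window is shorter than a read, so a shared window need not leave a read unplaced. H2-T24 rose most, from 91.3, 105 and 80.3 normalized counts in WT to 739, 759 and 787 in Dab2-cKO (log2 fold change 3.05, SE 0.11, adjusted p = 2.09e-36 by edgeR). H2-T23, which encodes the nonclassical chain Qa-1, had 243, 244 and 237 in WT and 949, 1001 and 1042 in Dab2-cKO (log2 fold change 2.05, SE 0.09). Among 6 class I-like genes, 4 were higher and 1 was lower, and by library size alone 2 were higher (Fcgrt and Hfe) and 1 lower, with the median going from 0.62 to 0.19. Fcgrt, the heavy chain of the neonatal Fc receptor, which also pairs with B2m, rose 4.14-fold, whereas Procr, the endothelial protein C receptor, which does not need B2m, fell from 204 ± 19.1 to 59.2 ± 11.2 normalized counts (SD, n = 3 each).

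The next lists hold chaperones, proteases and proteasome subunits, most of which also handle proteins outside the class I pathway. Of 7 genes for peptide loading and trimming, 3 were higher (Tapbpl, the tapasin-related protein, by 1.07 on the log2 scale, and the aminopeptidase genes Erap1 by 0.61 and Lnpep by 0.39), and 4 were not called (Calr, Canx, Pdia3 and Uggt1, between -0.09 and 0.13). The list's median was 0.13 and turned to -0.29 by library size alone, with 4 genes then lower, and to -0.01 by upper-quartile scaling. Of the 14 constitutive 20S proteasome genes, 3 were higher (Psma4, Psma3 and Psma5), none was lower and 11 were not called, with a median of 0.14 that turned to -0.28 by library size alone, with 12 genes then lower. Psma4 rose by 0.30 (SE 0.08), the most of the 14, and was not called by library size alone. The activator genes split: Psme1 and Psme2, the subunits of the interferon-inducible activator PA28, rose by 1.74 and 1.49, while Psme3 of the nuclear activator fell by 0.46, and Psme4 and Pomp were not called.

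**Figure D3:**
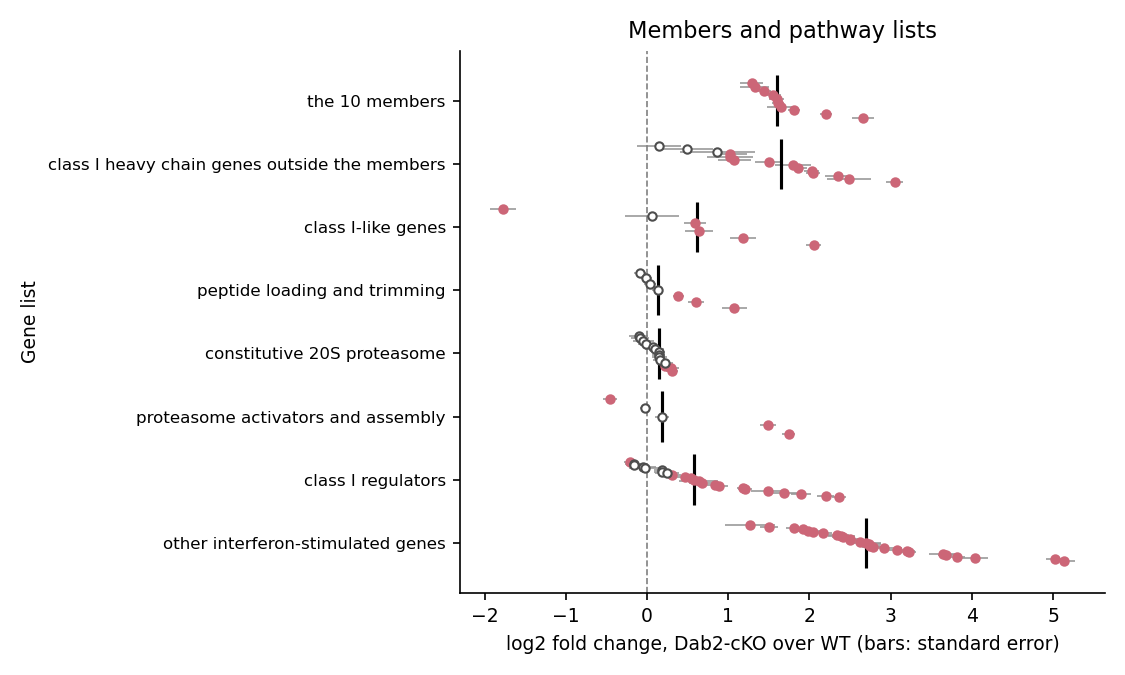
Log2 fold change (Dab2-cKO relative to WT) for the 10 members and for the genes of 7 pathway lists, with the standard error of each gene. Filled points were called at an adjusted p under 0.05, open points were not, and the black bar is the median of a list. The medians range from 0.13 for peptide loading and trimming, 0.14 for the constitutive 20S proteasome and 0.18 for activators and assembly, which turn to -0.29, -0.28 and -0.24 by library size alone, to 2.70 for the other interferon-stimulated genes.

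Regulators of class I genes were higher for 15 of 23 genes, lower for 1 (Creb1) and not called for 7, with a median log2 fold change of 0.58. By library size alone 9 were higher and 5 lower. Stat2 and Irf9, which act together downstream of type I interferon receptors, rose by 2.36 and 2.20. Irf1, a transcription factor that interferon gamma induces, had normalized counts of 73.5, 52.4 and 82.9 in WT and of 223, 211 and 238 in Dab2-cKO (log2 fold change 1.69, SE 0.16, adjusted p = 4.86e-15 by edgeR). Receptor chains for interferon were higher for Ifngr1 (1.21), Ifngr2 (0.84) and Ifnar2 (1.49), and Ifnar1 (0.19) was not called. All 27 other interferon-stimulated genes were higher, under each scaling tried, with a median of 2.70 and a range from 1.27 (Tgtp1) to 5.14 (Ifit1). Ifit1, which binds foreign RNA, had 37.9, 14.4 and 34.2 in WT and 964, 1062 and 990.0 in Dab2-cKO (35.2-fold, edgeR's adjusted p = 2.23e-42). The summed normalized count of these 27 genes was 7.49 times as high in Dab2-cKO as in WT, and that of the 10 class I presentation genes 3.42 times.

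Of the 10 members, 6 lie in the stretch of chromosome 17 from H2-K1 to H2-D1 (chr17:34214987-35486475 in GRCm39). Tapbp lies just outside it, and B2m, Psmb10 and Nlrc5 are on other chromosomes. Within that stretch, 22 of 75 other protein-coding genes tested were higher, 11 were lower and 42 were not called, with a median log2 fold change of 0.01. Without the genes of the H2 family, most of them class II genes there, 16 of 65 were higher and 11 lower, with a median of -0.04. Among all genes tested, 16.8% were called higher and 11.5% lower. Both genes that fell and genes that rose lay between the members. Col11a2 fell by 0.36 between H2-K1 and the Tap genes. Between the Tap genes and H2-D1, Ly6g6d, a gene of the Ly6 family, fell by 5.40, while Tnxb rose by 2.01 and C4b by 2.14. The stretch was chosen after the values were seen.

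**Figure D4:**
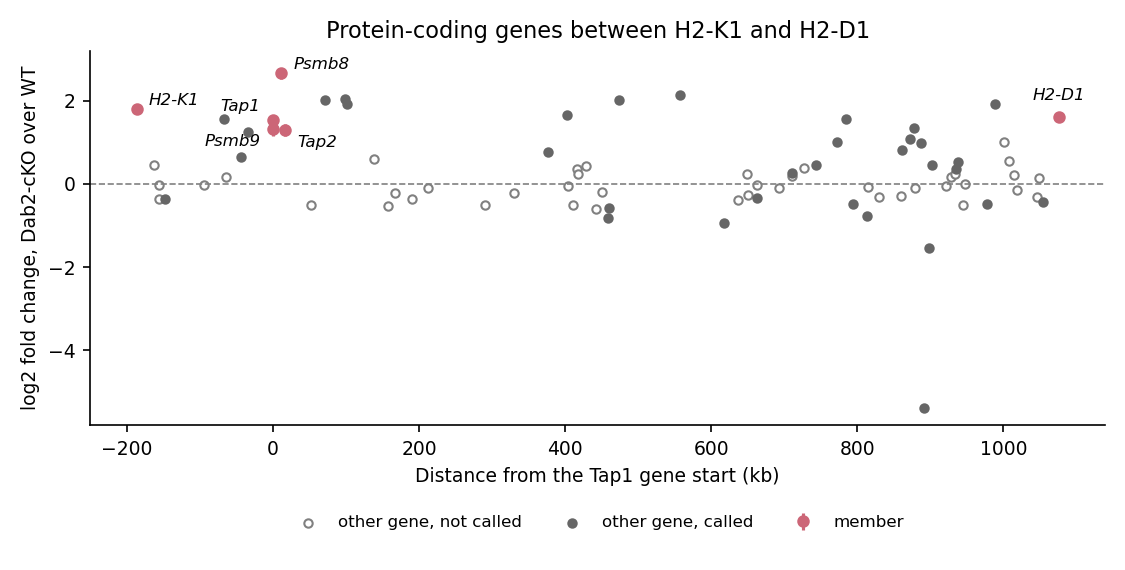
Log2 fold change of the protein-coding genes between H2-K1 and H2-D1 against the distance from the Tap1 gene start in kb. Red points with standard errors are the 6 members in the stretch, filled grey points other called genes and open points genes not called. The members lie between 1.29 and 2.66, while the median of the other 75 genes is 0.01.

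The sum of the class I presentation genes rose by a factor nearer to those of leukocyte, endothelial and fibroblast markers than to that of bulge markers. H2-K1, H2-D1 and B2m made up most of this sum in both groups, so it mainly describes them. Cells of nearly all types express class I genes, and leukocytes and endothelium are known to express them strongly. The summed normalized count of the leukocyte markers ranged from 2785 to 3044 in WT and from 11928 to 12338 in Dab2-cKO, 4.13 times as high. Endothelial markers ranged from 1118 to 1268 and from 4019 to 4126, 3.36 times as high. Fibroblast markers were 3.25 times as high, bulge markers 1.62 times, and melanocyte markers 0.277 times. No marker in these lists was at 0 in all 6 libraries, and 5 leukocyte markers, the lymphocyte genes Cd3e, Cd8a, Trdc, Nkg7 and Cd79a, were not called. The lymphocyte gene Cd3g rose by 1.11 on the log2 scale, Ptprc, the pan-leukocyte marker CD45, by 1.52 and Lyz2 of myeloid cells by 2.53.

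The sum of the 10 members divided by the sum of the fibroblast markers was 0.0471, 0.0441 and 0.0423 in WT and 0.0471, 0.0461 and 0.0471 in Dab2-cKO, so the groups met. Divided by the endothelial markers it was 4.20, 4.31 and 3.68 in WT and 4.09, 4.12 and 4.19 in Dab2-cKO, again with overlap, and the mean moved by a factor of 1.02. Against the leukocyte markers it moved from 1.66 to 1.38, with every Dab2-cKO library below every WT library. Genes of the class II pathway, which interferon also induces, are part of that list, and without these 3 genes the ratio moved from 3.43 to 3.00. Against Ptprc alone it moved the other way, from 20.5 to 24.6, so the direction depends on the marker. Against the bulge markers it moved from 0.242 to 0.511, a factor of 2.11. Keratin genes (Krt14, Krt5 and Krt15) made up 82.8% to 83.3% of the bulge sum in WT and 86.5% to 86.7% in Dab2-cKO, and Krt14, Krt5 and Itga6 mark basal keratinocytes in general. Without those 3 genes the factor was 2.21. These trimmed lists were chosen after the values were seen. Single members differed in this. By mean ratios, Psmb8 rose against leukocyte, endothelial and fibroblast markers by factors of 1.52, 1.87 and 1.92, and B2m by 1.11, 1.36 and 1.41. Nlrc5 fell against them to 0.654, 0.801 and 0.830 of its mean ratio in WT. The groups overlapped for B2m against leukocyte markers and for Nlrc5 against endothelial and fibroblast markers. The part of these other cells in the rise of the class I presentation genes was not tested.

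**Figure D5:**
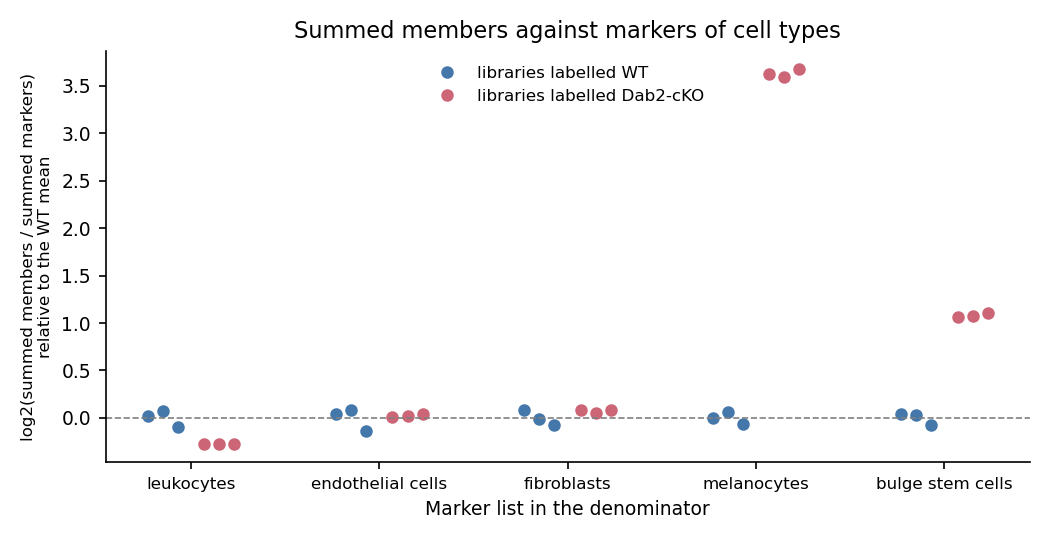
Sum of the 10 members divided by the sum of each marker list, as log2 relative to the WT mean, for each library. Points of the 2 groups overlap for endothelial cells and fibroblasts, lie lower in Dab2-cKO for leukocytes (0.829 of the WT mean, against 1.20 with Ptprc alone, which is not plotted) and higher for bulge stem cells (2.11 times) and melanocytes (12.4 times).

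Genes with a pattern like that of B2m were sought among the 10837 genes whose mean normalized count was at least 100, by Pearson's r of log2 CPM with B2m over the 6 libraries. The closest were Vdac3, Ddx60, Fos, Klk1 and Hspb7, with r between 0.9997 and 0.9998, and 872 of the 10837 genes had r over 0.99. With 2 groups this far apart, r mainly reflects the difference between the groups. The sizes differed widely among these 5, from a log2 fold change of 0.72 for Vdac3, a channel of the mitochondrial outer membrane, to 5.48 for Klk1, a kallikrein.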

How the data were processed

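The authors sequenced total RNA (stranded low-input kit) of FACS sorted HFSCs, as 3 WT and 3 Dab2-cKO biological replicates by their labels. Per the labels and methods, the authors trimmed the reads with fastp 0.23.4, aligned them to GRCm39 with HISAT2 2.2.1 and deposited counts per gene from featureCounts 2.0.6, without normalization. Whether strand or molecular identifiers were used, how multimapping reads were counted and which annotation release was used are not given in the sources used here. A second deposited table, of the authors' own DESeq2 comparison, was not used. Columns named FL-FL were taken as Dab2-cKO, as the authors' title for the series uses that name, and every direction depends on this.

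Counts were filtered by edgeR 4.0.16 (default expression filter), scaled by TMM and compared by its quasi-likelihood test (robust, Benjamini-Hochberg over all 32149 genes tested, call at an adjusted p under 0.05). A normalized count is the count over the library's effective size (total times TMM factor), times the mean effective size. Totals of 7040032 to 11696457 put a limit of 3 counts at 2.56e-05% to 4.26e-05% of a library, for counting error only. Ratios within a library were compared by exact permutation. The edgeR and DESeq2 fits were tested on simulated counts. Far fewer genes changed there than were called here, and as many up as down, so the simulation does not test the choice of scaling. Coordinates and exon lengths came from GENCODE for GRCm39, and promoters of 8 of the 10 members from RefSeq (GRCm38.p6), placed in GRCm39 by exact match. Tap2 and Nlrc5 had no entry. The members, the lists and the rule for named genes (all members, Psmb5, Psmb6, Psmb7, Dab2, H2-T23, Irf1 and Rfx5, in each list the called genes with the largest rise and fall at a mean of at least 20 normalized counts, and the 5 genes most like B2m) were chosen with earlier results of these data known. Other genes of the lists were named after their values were seen, and 1 gene that the rule names is not reported here. Alternatives were DESeq2 1.42.0, library size only, upper-quartile scaling, no low-count filter, a replicate block and each library left out in turn.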

Additional observations from a re-analysis of the deposited data

How the results depend on the processing

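All 10 members stayed higher and called in each of the 11 alternatives, with log2 fold changes from 0.87 (Tap2, library size only) to 2.73 (Psmb8, without WT replicate 1) and adjusted p-values of at most 2.56e-05. Library size only moved the median of all genes tested to -0.45 and the calls to 2686 higher and 11168 lower, against 5387 and 3682 by TMM, and the median of the members to 1.18. Upper-quartile scaling gave -0.17, 4281 higher and 5561 lower, and 1.46. By library size only the genes called higher numbered 2 for class I-like genes, 1 for peptide loading and trimming, 0 for the constitutive 20S proteasome and 9 for regulators, against 4, 3, 3 and 15. Those called lower numbered 4 for peptide loading and trimming, 12 for the constitutive 20S proteasome, 3 for activators and assembly and 5 for regulators, against 0, 0, 1 and 1. Upper-quartile scaling gave 2 lower for peptide loading and trimming, 1 higher for the constitutive 20S proteasome, 2 lower for activators and assembly and 3 lower for regulators. Without the low-count filter 1 constitutive 20S proteasome gene was higher, and DESeq2 called 0 regulators lower. With each library left out in turn, the constitutive 20S proteasome had 1 (without Dab2-cKO replicate 2) to 6 (without WT replicate 2) higher, peptide loading and trimming 0 to 1 lower (without WT replicate 1), and regulators 0 to 1 lower, with 0 without WT replicate 2 or 3 or Dab2-cKO replicate 1 or 2. The 6 ratios kept their direction with each library left out. The replicate numbers did not pair the samples: same-numbered libraries correlated at 0.023, 0.012 and 0.0076 in their deviations from the group means. With the replicate block 8967 genes were called, against 9069, the 10 members among them, and B2m (2.20), Psmb8 (2.66) and Tap2 (1.30) hardly moved. At this depth, and by the exon length used, Psmb9 stood closest to the receptor genes, at 14.9 normalized counts per kb in WT.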
